A study of Mus musculus with 4 samples.

Results

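The genes described here make saturated and monounsaturated fatty acids: Acly, Acss2, Acaca, Fasn, Elovl1, Elovl6, Scd1, Scd2, Srebf1 and Thrsp. They were chosen by symbol, with earlier results of these data known. Each matched 1 Ensembl row, giving 10 of the 53465 gene rows of the count table. They were measured in 4 poly(A) RNA libraries of B16 cells, a mouse melanoma line. The 2 control libraries carry the treatment label Control and no further description, and the 2 treated libraries came from cells after 4 h with EM-plasma, which the labels call exosome-mimetic nanovesicles (EMs)-treated plasma. Neither the nature of that plasma nor what the controls received is given in these sources. No label says that the libraries came from separate cultures, so p-values reflect library-to-library spread that may be technical.

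Cells build fatty acids from acetyl-CoA. ATP-citrate lyase (Acly) makes it from citrate and acetyl-CoA synthetase (Acss2) from acetate, acetyl-CoA carboxylase (Acaca) turns it into malonyl-CoA, and fatty acid synthase (Fasn) joins the units into palmitate. Elovl6 lengthens palmitate to stearate, Elovl1 extends longer chains, and the stearoyl-CoA desaturases put in the double bond that gives palmitoleate and oleate. SREBP-1, the product of Srebf1, is a membrane-bound transcription factor that is cut free when sterols are low and then drives most of these enzymes, and Thrsp encodes a small lipogenic protein abundant in liver and fat. In tumour cells monounsaturated fatty acids are known to make membranes less prone to the lipid peroxidation of ferroptosis, the form of cell death that the series title names.

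After EM-plasma 5 of the 10 genes fell and 0 rose: the desaturases Scd1 and Scd2, the elongase Elovl6, the regulator Srebf1 and the citrate lyase Acly, by 1.12-fold to 1.31-fold. Fasn and Acaca, the core of the pathway, did not pass the test, nor did Acss2, Elovl1 and Thrsp. With p unadjusted, 6 of the 10 were below 0.05, the called genes and Acss2, against 2671 of all 13664 genes tested. DESeq2 also called 5 of the 10 lower and 0 higher, against 280 lower and 277 higher of all genes. Called means an adjusted p below 0.05 in edgeR's quasi-likelihood test. Of all 13664 genes tested 2.88% were called lower and 3.34% higher, 6.21% in all. In 8 of the 10 genes both EM-plasma libraries lay below both controls and in 0 above, against 24.8% and 24.3% of all genes tested. The 10 genes had a median log2 fold change of -0.21, against -0.0027 over all genes tested. Because the genes were chosen with earlier results of these data known, these shares and medians describe them and are not an independent test. In bulk RNA, fewer cells of a type and less RNA per cell cannot be told apart.

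Library totals ran from 46295133 to 49367932 counts. Levels are given as CPM, reads scaled to a common library total with TMM factors. All 8 melanocyte markers were detected, with a sum between 11370 and 11440 CPM in control libraries and between 11540 and 11730 in treated ones. Of these 8, 0 were called by edgeR, against 6.21% of all genes tested, and 0 by DESeq2. Before adjustment 3 of the 8 had p below 0.05, against 2671 of all 13664 genes tested. Of these 3, Mitf and Tyr were lower in treated libraries and Slc45a2 was higher. Tyr lay just outside the threshold (log2 fold change -0.22, edgeR adjusted p = 0.0532). Of 7 adipocyte markers 6, among them Adipoq and Plin1, had 0 reads in every library, and the list summed to at most 0.107 CPM. Of 8 blood cell markers 4, including Ptprc and Hbb-bs, had 0 reads, and the list summed to 0.591 and 0.67 CPM in the control libraries against 0.215 and 0.258 CPM in the treated ones. The part of these traces in the results was not tested. Of 7 fibroblast and keratinocyte markers Epcam had 0 reads, and the list summed to 2.05 and 2.13 CPM against 1.84 and 2.32 CPM.

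Scd1 and Scd2 are close copies, so a stretch of each coding sequence is printed to show where reads could not be assigned between them. The coding sequences, without the stop codon, hold 1065 bases in Scd1 and 1074 in Scd2, and 962 of 1065 aligned bases are identical (90.3%). The longest identical run has 147 bases. It is given below with 30 bases on each side, coding bases 493 to 699 of Scd1 and 502 to 708 of Scd2 from the GENCODE transcripts, and capitals mark the 2 bases that differ.
Scd1: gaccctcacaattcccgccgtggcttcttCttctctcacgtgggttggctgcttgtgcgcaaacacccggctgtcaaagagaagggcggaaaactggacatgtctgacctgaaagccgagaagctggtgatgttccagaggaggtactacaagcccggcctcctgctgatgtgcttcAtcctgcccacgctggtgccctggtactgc
Scd2: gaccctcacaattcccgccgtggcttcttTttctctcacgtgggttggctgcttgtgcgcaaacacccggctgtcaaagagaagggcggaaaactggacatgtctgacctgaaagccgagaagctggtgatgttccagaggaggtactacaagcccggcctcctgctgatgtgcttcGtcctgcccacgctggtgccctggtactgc
Outside such runs the genes are easy to tell apart, because most of each transcript is noncoding and has diverged. Of the 4733 words of 100 bases in the Scd1 transcript 48 occur in Scd2, and of the 4783 words of 50 bases 145 do. Neither the read length nor how reads with several matches were treated is stated in these sources.

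The promoters of 4 genes are shown next, as members with different outcomes: Acly and Srebf1, which fell, Acss2, which narrowly missed the threshold, and Fasn, which did not pass. Each line holds the 250 bases before a RefSeq start site on GRCm38.p6, read in the direction of the gene. Capitals mark the CCAAT box bound by NF-Y (CCAAT, or ATTGG on the other strand) and the GC box bound by Sp1 (GGGCGG or CCGCCC), factors known to act beside SREBP.
Acly, chr11:100528001-100528250, minus strand: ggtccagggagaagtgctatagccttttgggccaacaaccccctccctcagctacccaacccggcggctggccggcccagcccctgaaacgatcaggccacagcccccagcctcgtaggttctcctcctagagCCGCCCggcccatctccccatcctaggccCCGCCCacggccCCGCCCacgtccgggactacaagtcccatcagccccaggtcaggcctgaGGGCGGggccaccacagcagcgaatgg
Acss2, chr2:155517793-155518042, plus strand: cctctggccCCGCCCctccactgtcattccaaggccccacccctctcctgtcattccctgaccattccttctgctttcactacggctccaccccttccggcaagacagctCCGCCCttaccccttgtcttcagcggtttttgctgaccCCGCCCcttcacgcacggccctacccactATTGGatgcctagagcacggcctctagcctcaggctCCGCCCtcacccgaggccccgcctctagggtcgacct
Srebf1, chr11:60210472-60210721, minus strand, 1 of its 3 start sites in the table: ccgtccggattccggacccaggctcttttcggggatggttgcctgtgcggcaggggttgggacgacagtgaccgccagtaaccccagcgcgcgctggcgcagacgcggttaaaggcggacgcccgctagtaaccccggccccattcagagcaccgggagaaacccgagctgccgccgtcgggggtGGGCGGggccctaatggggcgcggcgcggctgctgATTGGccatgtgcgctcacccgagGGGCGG
Fasn, chr11:120824548-120824797, minus strand: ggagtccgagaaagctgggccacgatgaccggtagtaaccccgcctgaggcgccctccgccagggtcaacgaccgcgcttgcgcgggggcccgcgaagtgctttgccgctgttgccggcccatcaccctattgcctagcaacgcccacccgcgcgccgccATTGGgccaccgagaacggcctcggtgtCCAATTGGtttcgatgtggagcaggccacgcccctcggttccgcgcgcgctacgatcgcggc
The motif search covered 300 bases per start site (250 before, 50 after) and both strands. RefSeq promoters were found for 8 of the 10 members, 11 in all, and Scd1 and Scd2 had none in the table. A CCAAT box was found in 7 of 11 member promoters (63.6%), against 37.4% of all 32851 promoters, and a GC box in 6 of 11 (54.5%), against 35.7%. Srebf1 and Elovl1 each have more than 1 promoter among the 11. Counted by gene, a CCAAT box was found in 6 of the 8 members and a GC box in 4. The Fasn promoter has 3 CCAAT matches and 0 GC boxes, and 2 of its CCAAT matches overlap on opposite strands. The Acss2 window has 5 GC boxes and the Acly window 4, and in these windows 1 of the Acss2 boxes and the CCAAT box of Acly lie after the start site. Searched as exact letters, the sterol response element TCACNCCAC and the E-box CACGTG occurred in 0 of the 11, and in 1.24% and 7.15% of all promoters. Variants of these letters were not searched. Member promoters held 39.7% to 70.7% G and C, against a median of 52.7% over all promoters, and only that of Acaca (39.7%) lay below this median. Motif shares were not compared at equal G and C content. These matches describe letters in a window and do not locate bound sites.

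**Figure D1:**
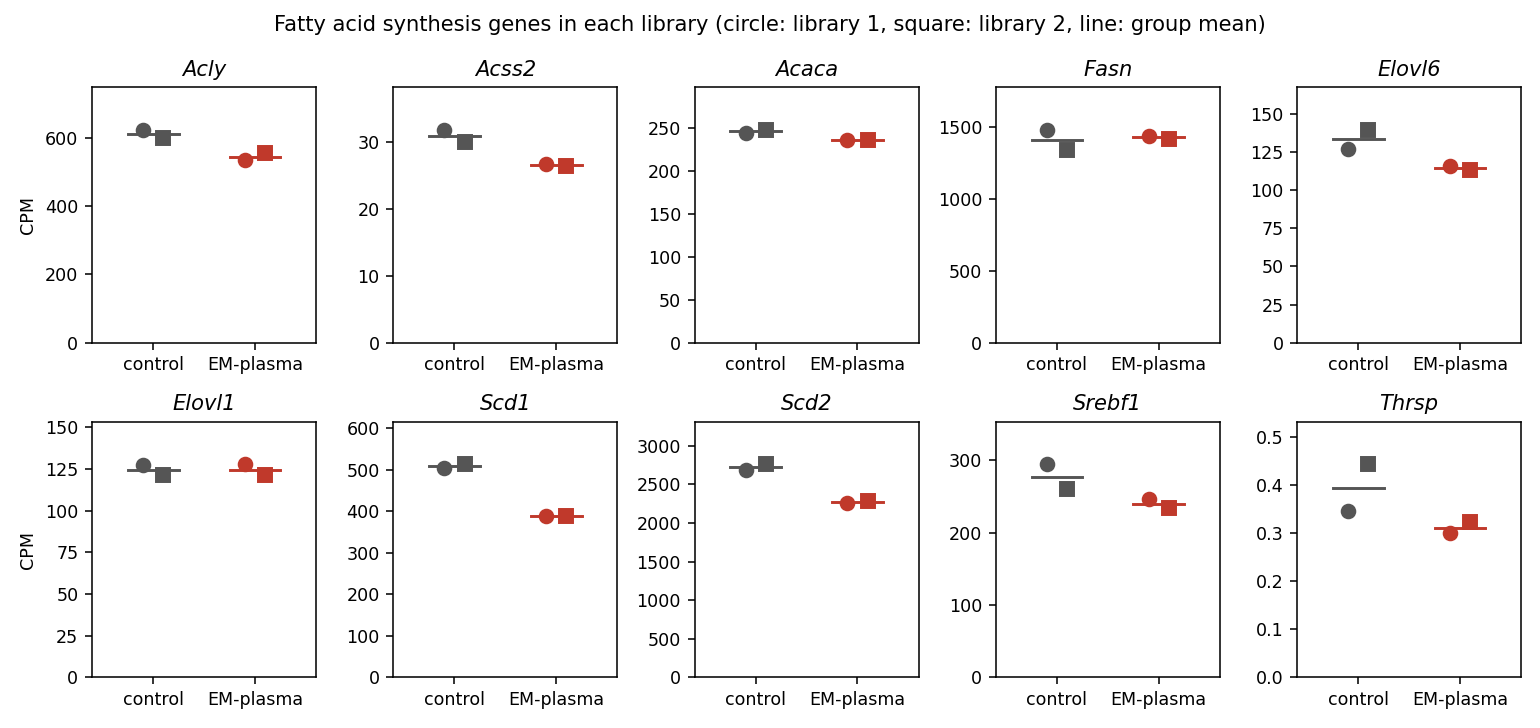
Level of each of the 10 genes in CPM (vertical axis from 0) in control (grey) and EM-plasma (red) libraries, where circles are library 1, squares library 2 and lines group means. Scd1 and Scd2 show a gap between groups much wider than the gap within them, while the controls of Fasn lie on either side of the treated libraries.

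The largest change was in Scd1, the desaturase that makes oleate from stearate (ENSMUSG00000037071, GRCm38 chromosome 19, 44394455 to 44407879, minus strand). It stood at 503.5 and 512.8 CPM in the controls and 388.2 and 387.7 CPM in the treated libraries. Both treated libraries were far below both controls, and the gap within either group was at most 1.83%. Scd1 fell 1.31-fold (log2 fold change -0.39, SE 0.041, 95% interval -0.47 to -0.30, edgeR adjusted p = 2.25e-07). It ranked 3 by p among all tested genes that were lower in treated cells.

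Scd2 is the desaturase gene of brain and of many cultured cells and the most abundant transcript of the 10 (ENSMUSG00000025203, chromosome 19, 44293674 to 44306864, plus strand). Its levels were 2693 and 2760 CPM in the controls and 2263 and 2291 CPM in the treated libraries. The groups did not overlap, and libraries of a group differed by at most 2.49%. Scd2 fell 1.2-fold (log2 fold change -0.26, SE 0.035, 95% interval -0.33 to -0.19, edgeR adjusted p = 1.32e-05). Because it is so abundant, Scd2 made up most of the fall in the members' summed CPM, which counts reads without correction for length. The 10 genes summed to 6064 CPM on average in controls and to 5377 CPM after EM-plasma, 11.3% less. Scd2 carried 65.5% of that difference and Scd1 17.5%.

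The 4 Scd genes of the mouse lie within 205 kb of chromosome 19, and Scd1 and Scd2 supplied nearly all of their reads. Scd3 had 11 to 15 reads and Scd4 17 to 25 reads per library, of 123617 to 157403 reads on all 4. Scd1 took 15.75% (exact Clopper-Pearson 95% interval 15.57% to 15.93%) and 15.67% (15.48% to 15.85%) of these reads in the controls. In the treated libraries it took 14.64% (14.45% to 14.84%) and 14.47% (14.28% to 14.67%). The mean Scd1 share differed by -1.16 percentage points, with no overlap between groups, and that of Scd2 was correspondingly larger. With 2 libraries a group a two-sided exact permutation test cannot go below p = 0.333, the value it gave here. The intervals cover counting error only.

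Elovl6, which supplies the stearate that the desaturases use, also fell (ENSMUSG00000041220, chromosome 3, 129532355 to 129638495). It was at 127 and 139.5 CPM in controls and 115.9 and 113.4 CPM in treated libraries. The treated libraries were lower than both controls, but control 2 was 9.86% above control 1, a gap similar in size to that between control 1 and the treated libraries. The fold was 1.16 (log2 fold change -0.22, SE 0.053, edgeR adjusted p = 0.0112). The log2 fold change was -0.15 without control 2 and -0.29 without control 1, and the call ended without control 2 (adjusted p = 0.198), EM-plasma 1 (0.196) or EM-plasma 2 (0.329). Each fit without a library leaves 1 library in a group, which is then assumed to vary like the other group. A call that ends there can reflect the smaller design and does not by itself show a smaller change. For Elovl6 the log2 fold change was itself smaller without control 2 (-0.15 against -0.22) and larger without control 1 (-0.29).

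Elovl1, the elongase of very long saturated and monounsaturated chains, did not pass the test (ENSMUSG00000006390, chromosome 4, 118428093 to 118432953). It had 127.3 and 121.3 CPM in controls and 127.7 and 121.5 CPM in treated libraries, and the groups overlapped. The log2 fold change was 0.0037 with a 95% interval from -0.10 to 0.11 (edgeR adjusted p = 0.98), so the interval covers 0.932-fold to 1.08-fold. Elovl1 shares 1.94% of its exon bases with Cdc20 on the opposite strand, which was not called (edgeR adjusted p = 0.103).

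At the head of the pathway Acly, which makes cytosolic acetyl-CoA from citrate, fell by a small amount (ENSMUSG00000020917, chromosome 11, 100476353 to 100528000). Its controls stood at 623.2 and 598.1 CPM and its treated libraries at 535.1 and 555.2 CPM. The groups were separate, with differences of 4.03% between the controls and 3.76% between the treated libraries. Acly fell 1.12-fold (log2 fold change -0.16, SE 0.041, edgeR adjusted p = 0.0147). No fit without a library kept the call (adjusted p between 0.0664 and 0.559), and the log2 fold change moved between -0.19 and -0.14.

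Acss2, which makes acetyl-CoA from acetate, sat just outside the threshold (ENSMUSG00000027605, chromosome 2, 155517948 to 155585724). It was at 31.89 and 30.12 CPM in controls and 26.79 and 26.49 CPM in treated libraries, with no overlap. Its log2 fold change of -0.22 (SE 0.069, 95% interval -0.36 to -0.077) was as large as that of Elovl6, but on fewer reads, 1233 to 1570 a library, and the adjusted p was 0.0566 (edgeR). Acss2 shares 3.89% of its exon bases with Gss and 1.94% with Ggt7, both on the opposite strand and neither called (edgeR adjusted p = 0.605 and 0.17), and their part in its counts was not tested. Among called members Acly was the nearest inside the threshold.

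Acaca and Fasn carry out the committed step and the chain building, and neither passed the test. Acaca (ENSMUSG00000020532, chromosome 11, 84129672 to 84401651) had 244.1 and 247.5 CPM in controls and 236.1 CPM in each treated library. The treated libraries were lower, yet by a log2 fold change of only -0.058 (95% interval -0.15 to 0.033, edgeR adjusted p = 0.516). Fasn (ENSMUSG00000025153, chromosome 11, 120805846 to 120824547) had 1477 and 1336 CPM in controls and 1433 and 1416 CPM in treated libraries. Both treated values lay between the controls, which differed by 9.6%. The log2 fold change of Fasn was 0.019 (95% interval -0.067 to 0.10, edgeR adjusted p = 0.861), and its sign followed the controls, at 0.090 without control 1 and -0.050 without control 2 (adjusted p = 0.0858 and 0.366).

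Srebf1, whose product drives these enzymes, fell (ENSMUSG00000020538, chromosome 11, 60199089 to 60222581, minus strand). Alternative start sites give the SREBP-1a and SREBP-1c forms, which gene counts do not separate. It had 294.5 and 260.5 CPM in controls and 246.1 and 234.2 CPM in treated libraries. The groups did not overlap, but control 2 was nearer to EM-plasma 1 than to control 1, from which it differed by 11.6%. The fold was 1.16 (log2 fold change -0.21, SE 0.051, edgeR adjusted p = 0.0116). It was -0.12 on the log2 scale without control 1 (adjusted p = 0.13) and -0.29 without control 2 (0.0763), and the call also ended without EM-plasma 1 (0.0986) or EM-plasma 2 (0.395). Srebf1 shares 109 exon bases, 1.93% of its exons, with Rai1 on the opposite strand, and Rai1 was called higher (log2 fold change 0.18, edgeR adjusted p = 0.0455). The strand setting of the counting is not given, and the part of shared reads in either value was not tested.

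Thrsp, the lipogenic protein of liver and fat, was close to absent (ENSMUSG00000035686, chromosome 7, 97412938 to 97417730). It had 17 and 21 reads in controls and 14 and 15 in treated libraries. The treated counts were lower, but the 95% interval of the log2 fold change ran from -1.33 to 0.66 (edgeR adjusted p = 0.77), or 0.397-fold to 1.58-fold. At this depth neither the direction nor the size of a change was resolved.

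**Figure D2:**
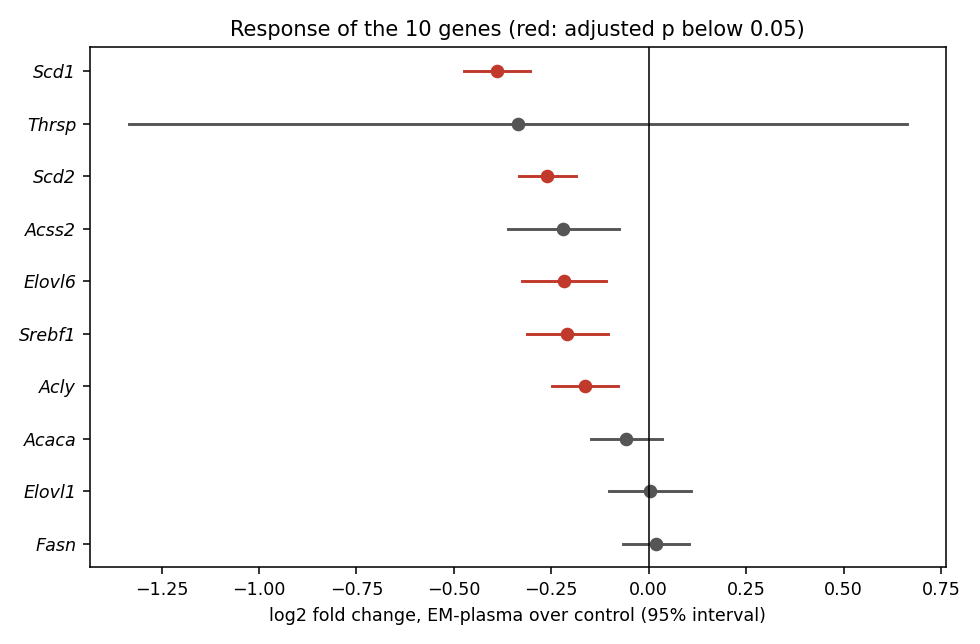
Log2 fold change of EM-plasma over control for each gene (horizontal axis) with its 95% interval, ordered from the largest fall. The intervals of the 5 genes in red lie below 0, that of Acss2 also does but its adjusted p was 0.0566, and those of Acaca, Elovl1, Fasn and Thrsp span 0.

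**Figure D3:**
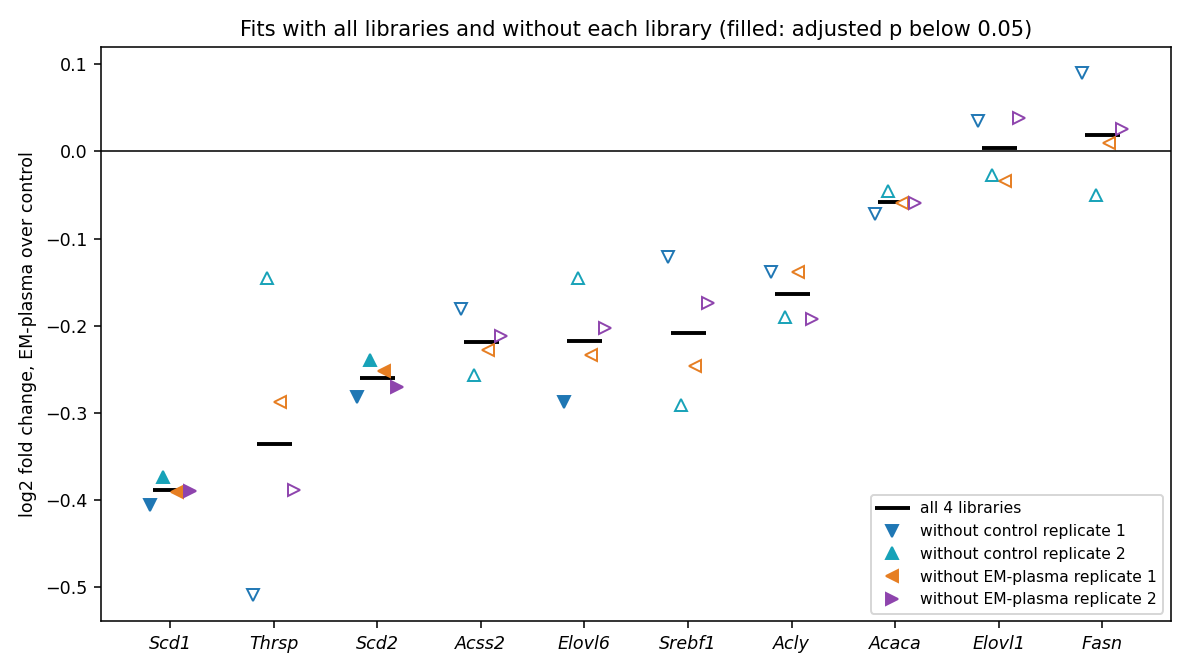
Log2 fold change of each gene with all 4 libraries (black bar) and without each library (triangles, filled where the adjusted p was below 0.05). Scd1 and Scd2 are filled in all 4 fits, Elovl6 in 1, and the other genes in 0.

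Scd1 and Scd2 were called whichever library was removed, with log2 fold changes from -0.41 to -0.37 and from -0.28 to -0.24. The members called lower numbered 3 without control 1 and 2 in each of the other fits. Over the whole table, too, fewer genes were called lower than the 393 of the full fit: 289 and 23 when control 1 or control 2 was removed, and 105 and 90 when EM-plasma 1 or EM-plasma 2 was.

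Levels between genes were compared per length, as CPM per kb of merged exons in controls. Scd2 led at 499 ± 8.67 (SD, n = 2), followed by Fasn at 128.5 ± 9.16, Acly at 115.7 ± 3.36 and Scd1 at 103.9 ± 1.33. Scd2 stood far above every other member, and the values of Fasn and Acly lay close together (135 and 122 against 118.1 and 113.3). Srebf1 at 49.25 ± 4.27 and Elovl1 at 45.59 ± 1.55 did not differ beyond their spread. Elovl6 followed at 20.72 ± 1.38, Acaca at 14.4 ± 0.14, Acss2 at 3.05 ± 0.123 and Thrsp at 0.18 ± 0.0316. The order within the pairs Srebf1 and Elovl1, and Elovl6 and Acaca, turned when the longest transcript was used as the length (64.55 and 68.62, 22.39 and 25.84), and Acss2 then stood at 8.59. In treated cells Scd1 was at 79.3 ± 0.0708 and Scd2 at 416.7 ± 3.7, with Fasn at 130.2 ± 1.11.

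**Figure D4:**
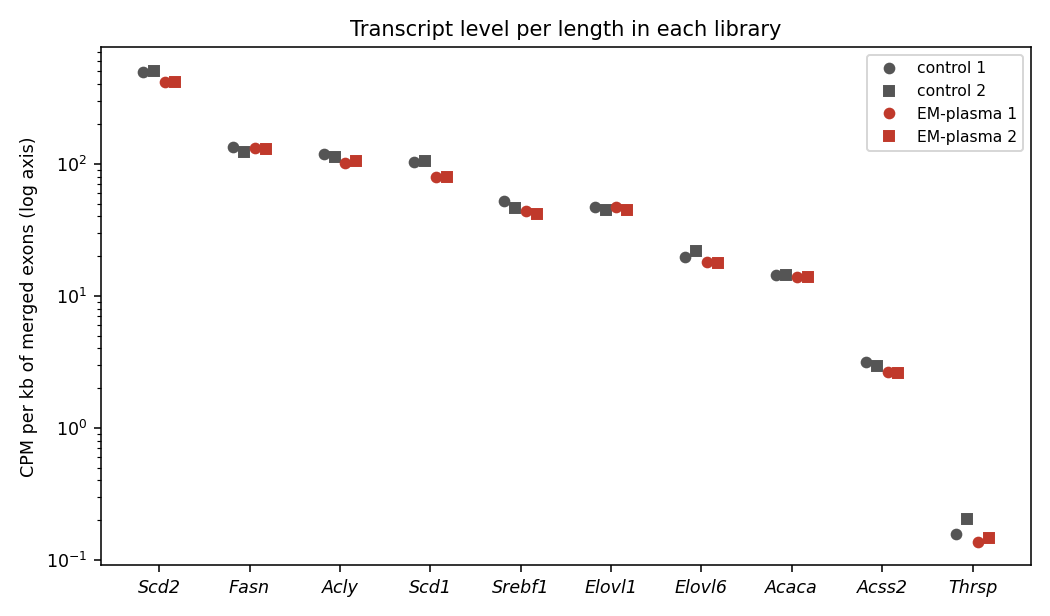
Level of each gene per length, as CPM per kb of merged exons on a log axis, in each control (grey) and EM-plasma (red) library. Scd2 stands highest at 499 in controls and Thrsp lowest at 0.18, and the red points of Scd1 and Scd2 lie below the grey ones.

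The rest of the pathway was read from 4 further lists of 75 genes, 71 of them tested. Of these 10 fell and 0 rose, 14.1% called lower against 2.88% of all genes tested, with a median log2 fold change of -0.010. These lists too were chosen with earlier results of these data known, so their shares are not an independent test. Before adjustment 16 of the 71 had p below 0.05, against 2671 of all 13664 genes tested. Both EM-plasma libraries lay below both controls in 22 of the 71 and above them in 12, against 24.8% and 24.3% of all genes tested. DESeq2, which called 280 of all genes lower and 277 higher, likewise called 10 of the 71 lower and 0 higher. The number lower was 4 without control 1, 1 without control 2 and 3 without either EM-plasma library.

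Among genes of substrate supply and the synthase steps 2 of 14 tested fell (14.3%, against 2.88% of all genes tested), with a median of 0.014. Idh1, the cytosolic NADPH-producing isocitrate dehydrogenase, fell from 137.4 ± 6.6 to 114.3 ± 3.04 CPM (1.2-fold, edgeR adjusted p = 0.00141). Slc25a1, the carrier that brings citrate out of mitochondria to ATP-citrate lyase, fell from 69.39 ± 1.69 to 60.03 ± 1.38 CPM (1.16-fold, edgeR adjusted p = 0.0266). Removing control 2 or EM-plasma 1 ended the call of Idh1 (adjusted p = 0.116 and 0.181), with log2 fold changes of -0.21 and -0.24 against -0.26. That of Slc25a1 ended with each library left out in turn (adjusted p between 0.0815 and 0.494), with log2 fold changes between -0.23 and -0.19 against -0.21. Me1, the malic enzyme that also supplies NADPH and the most abundant gene of the list, was at 151.8 ± 7.07 and 164.9 ± 1.05 CPM and did not pass (edgeR adjusted p = 0.157). With the replicate number as a block it was called higher, at a log2 fold change of 0.12 as in the fit without the block (edgeR adjusted p = 0.0453). Acacb, the mitochondrial-membrane carboxylase, was at 15.04 and 15.88 CPM and did not pass.

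Elongation and desaturation beyond the 10 genes had 3 of 14 tested members lower (21.4%, against 2.88% of all genes tested) and a median of -0.099. Fads2, the delta-6 desaturase of polyunsaturated fatty acids, fell from 235 ± 0.804 to 190.2 ± 3.26 CPM (1.24-fold, edgeR adjusted p = 5.16e-05), and it was called in all 4 fits without a library. Fads1, the delta-5 desaturase, fell 1.13-fold, from 237.3 ± 1.15 to 210 ± 3.26 CPM (edgeR adjusted p = 0.0159). Tecr, the reductase of the last step of each elongation cycle, fell 1.17-fold, from 151.4 ± 4.31 to 129.9 ± 6.87 CPM (edgeR adjusted p = 0.00735). With each library left out in turn the log2 fold change of Fads1 stayed between -0.19 and -0.16, against -0.18 with all libraries, and its adjusted p was between 0.0509 and 0.478. That of Tecr lay between -0.28 and -0.17, against -0.22, with an adjusted p between 0.069 and 0.486.

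Of 23 tested regulators 2 fell (8.7%, against 2.88% of all genes tested), with a median of -0.0013. Srebf2, the gene of the sister factor SREBP-2, fell from 333.1 ± 22.5 to 283.3 ± 8.57 CPM (1.18-fold, edgeR adjusted p = 0.00217). Insig1, which holds SREBP in the endoplasmic reticulum and is itself an SREBP target, fell from 174 ± 7.93 to 154.4 ± 2.3 CPM (1.13-fold, edgeR adjusted p = 0.0316). The calls of Srebf2 and Insig1 ended without control 2 (adjusted p = 0.0597 and 0.215) or EM-plasma 2 (0.226 and 0.527), that of Srebf2 also without control 1 (0.0638) and that of Insig1 without EM-plasma 1 (0.387). The escort Scap and the liver X receptor gene Nr1h2 did not pass the test, and Mlxipl, the gene of the glucose-responsive factor ChREBP, had no reads.

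Activation and esterification had 3 of 20 tested members lower (15%, against 2.88% of all genes tested) and a median of -0.0088. Acsl3, which activates free fatty acids such as oleate, fell from 167.5 ± 9.98 to 133.6 ± 4.43 CPM (1.25-fold, edgeR adjusted p = 0.000109). Its call ended without control 2, where the log2 fold change was -0.26, against -0.33 with all libraries. Acsl4, which activates polyunsaturated fatty acids, fell 1.19-fold (edgeR adjusted p = 0.0198). Lpcat3, which puts them into phospholipids, fell 1.14-fold (edgeR adjusted p = 0.012). Removing any library ended both calls. In those fits the log2 fold change lay between -0.33 and -0.16 for Acsl4, against -0.25, and between -0.21 and -0.18 for Lpcat3, against -0.19. Agpat3, an acyltransferase and the most abundant gene of the list, was at 219.4 ± 10.8 and 216.4 ± 1.75 CPM (edgeR adjusted p = 0.868).

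**Figure D5:**
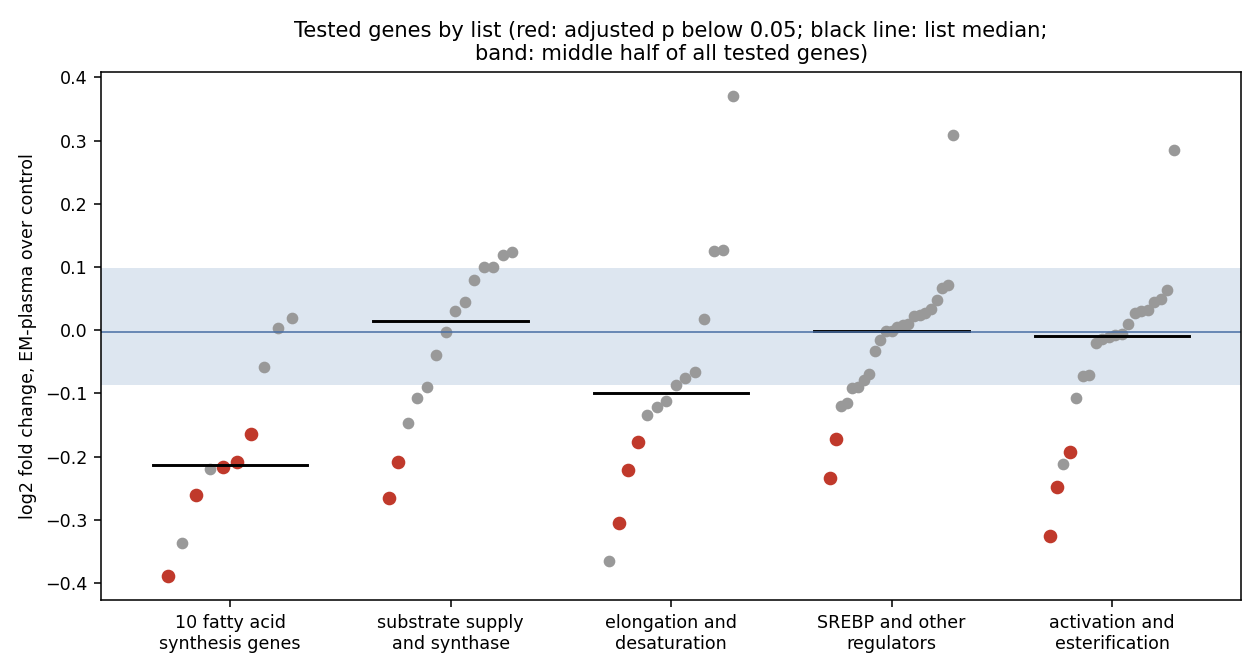
Log2 fold change of each tested gene in the set of 10 and in the 4 further lists (red where the adjusted p was below 0.05), with list medians as black lines and the middle 50% of all tested genes as a band. All 15 red points lie below 0, and the median of the 10 genes, at -0.21, lies below the band while those of 3 of the other lists lie near 0.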

How the data were processed

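Poly(A) RNA was sequenced with a stranded Illumina kit, per the labels' protocols. The build GRCm38 and the tools TopHat2 2.1.1, HTSeq, CASAVA and edgeR are listed in the submitters' processing notes without their roles. The table deposited by the authors holds raw read counts per Ensembl gene. Their per-sample tables of scaled signal, as deposited by the authors, equal each count times 1 constant per library and were used only to check the columns.

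Symbols were matched for 99.6% of gene rows. Coordinates and exon lengths came from GENCODE mouse release 21 on GRCm38, promoters from RefSeq on GRCm38.p6. The filter was filterByExpr of edgeR 4.0.16 under R 4.3.3. Libraries were scaled by TMM and tested on group alone with edgeR's quasi-likelihood F test, two-sided, Benjamini-Hochberg adjusted over all 13664 genes tested. CPM uses the tested genes' total times the TMM factor, and is shown per library or as mean ± SD with n = 2. Log2 fold changes had a median standard error of 0.07 over all genes. Counts in a library of this depth leave little counting error except in genes with few reads, such as Thrsp. Members and lists were chosen with earlier results of these data known. Besides the 10 genes, the text names up to 4 called genes of each list by smallest p and its most abundant gene. Acacb, Scap, Nr1h2, Mlxipl, Scd3, Scd4, Rai1, Gss, Ggt7, Cdc20 and the marker genes at 0 reads were named after their values were seen. So were Mitf, Tyr and Slc45a2. Alternatives were other scalings, filters, tests and dispersions, a replicate block, and leaving out each library.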

Additional observations from a re-analysis of the deposited data

How the results depend on the processing

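RLE or upper quartile scaling, voom in limma 3.58.1, DESeq2 1.42.0, the newer dispersion and a minimum mean count of 10 each called the same number of members (5 lower, 0 higher) and of further pathway genes (10 lower, 0 higher), and no member or pathway gene named by the rule crossed the threshold or turned while called. Over all genes DESeq2 called 277 higher, against 456. Without a filter beyond 1 read, 22906 genes were tested and 1 gene was called lower and 13 higher, with 1 member (Scd1) and 0 pathway genes lower, and the adjusted p of Scd2 was 0.0663; the cause was not tested. Leaving out 1 library gave 2 to 3 members, 1 to 4 pathway genes and 23 to 289 of all genes lower, and 48 to 258 of all genes higher. The replicate numbers are in the titles but nothing says that they pair libraries, and the deviations of same-numbered libraries correlated at 0.0393 across all genes tested and at 0.339 across those above a log2 CPM of 5; 2 pairs do not settle whether the numbers mark a shared source. With a replicate block 851 genes were called lower and 832 higher, 6 members lower (Acss2 added, adjusted p = 0.0149), and 14 pathway genes lower and 2 higher, Me1 among them (adjusted p = 0.0453). Per kb of exons the Scd1 share changed by -1.24 percentage points. Depth limits Thrsp, Scd3 and Scd4.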
